A study of Mus musculus with 20 samples.

Results

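The nuclear genes of respiratory complexes II, III, IV and V were followed isoform by isoform in inguinal white adipose tissue (iWAT) and brown adipose tissue (BAT) of mice that lost the phosphatase regulator α4 in adipocytes. The genes were taken by symbol. They are Sdha, Sdhb, Sdhc and Sdhd and every symbol that starts with Uqcr, Cox4, Cox5, Cox6, Cox7, Cox8 or Atp5, which gave 47 of the 25219 genes in the table. Of these, 4 belong to complex II, 8 to complex III, 17 to complex IV and 15 to complex V, and 3 share a symbol but are not structural subunits (Cox7a2l, Atp5s and Atp5sl).

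The animals were male mice on a mixed C57Bl/6 background. All of them carried floxed alleles of the α4 gene (Igbp1), and all received tamoxifen at 100 mg/kg by intraperitoneal injection, 5 times over 6 days, from 2 months of age. Ai-α4KO mice also carried an Adiponectin-CreERT2 transgene, which puts the recombinase under the adiponectin promoter of adipocytes. Control mice lacked that transgene, although the labels call their genotype WT. Tissue was taken 1 week after recombination, and each of the 4 groups of tissue and genotype had 5 libraries. The labels do not say which libraries came from the same mouse, and nothing states that the libraries of a group are separate animals, so p-values measure the spread between these libraries.

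The respiratory chain passes electrons from NADH and succinate to oxygen and uses the energy to pump protons across the inner mitochondrial membrane. Complex II oxidises succinate, complex III passes electrons from ubiquinol to cytochrome c, complex IV (cytochrome c oxidase) hands them to oxygen, and complex V (ATP synthase) makes ATP from the returning protons. Several subunits of complex IV exist as alternative isoforms, with a form found in most tissues and a form found mainly in heart, skeletal muscle or brown fat, and subunit c of the ATP synthase ring is encoded by separate genes for the same mature protein. Brown fat is known for many mitochondria and for uncoupling protein 1 (Ucp1), which lets protons return without ATP synthesis.

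Total counts ran from 24023371 to 50384446 per library. Igbp1, the deleted gene, averaged 68.9 CPM (the count of a gene per 1000000 counts of the library) in Control iWAT against 10.2 in Ai-α4KO iWAT, and 96.5 in Control BAT against 16.9 in Ai-α4KO BAT. The adipocyte marker Adipoq was present in every library, and Ucp1 averaged 5408 CPM in Control BAT against 169.8 in Control iWAT. Control iWAT was uneven in Ucp1, at 255, 249 and 322 CPM in libraries 1 to 3 and 18.3 and 5.36 CPM in libraries 4 and 5. Skeletal muscle markers stood apart in several libraries. Their summed level over 18 genes was 10740 CPM in Control iWAT library 4 and 8390 CPM in Ai-α4KO iWAT library 1, against 26.3 to 309.9 CPM in the other iWAT libraries. In BAT the sum was 1578 CPM in Control library 1 and 8834 to 16270 CPM in the other Control libraries. It was 22170 and 24340 CPM in Ai-α4KO libraries 1 and 2 and 41510 to 72940 CPM in libraries 3 to 5. All Ai-α4KO BAT libraries were above all Control BAT libraries in this sum. A fit with these markers as a covariate therefore cannot cleanly separate them from genotype in BAT. Later fits without Control BAT library 1 and Ai-α4KO BAT libraries 3 to 5 keep this imbalance. They compare Ai-α4KO libraries 1 and 2 with the other Control libraries. Summed B cell markers (7 genes) were 491 and 199 CPM in Control iWAT libraries 1 and 4, against 1.28 to 12.5 CPM in all other libraries.

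Levels are given in RPKM, which is CPM divided by transcript length in kilobases, with libraries scaled by the trimmed mean of M-values (TMM) over all 20 of them. In Control iWAT the highest members were Atp5b, the catalytic β subunit of ATP synthase, at 1655 ± 257 RPKM (SD, n = 5), and Cox6b1, a subunit of complex IV that faces the intermembrane space, at 1288 ± 336 RPKM (SD, n = 5). The order of these 2 genes was the same in Control BAT, at 4674 ± 306 RPKM (SD, n = 5) and 3524 ± 295 RPKM (SD, n = 5). In Control iWAT Cox6b1, Cox6c, Cox4i1 and Uqcrh lay within 1 SD of the next gene in that order. Of the 47 members, 44 passed the filter on low counts in each tissue. Cox7b2 and Cox8c, known from testis, had 0 counts in all 20 libraries, which allows at most 0.0595 to 0.125 CPM depending on the depth of the library. Cox6b2, also a testis form, had 0 to 14 counts per library and was tested only in the fit of all 20 libraries. Intervals and floors of this kind cover counting error only.

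Loss of α4 was accompanied by lower transcripts across all 4 complexes in both tissues. A gene was called at an adjusted p below 0.01 with a fold change of at least 2 (edgeR quasi-likelihood test, Benjamini-Hochberg over all genes tested). In Ai-α4KO iWAT 26 of 44 tested members were called lower and 0 higher. Over all genes tested 10.7% were called lower and 11.3% higher. The median log2 fold change of the members was -1.07, against 0.01 over all genes. In Ai-α4KO BAT 26 of 44 were called lower and 2 higher, where 13.3% of all genes were called lower and 18.2% higher, and the members' median was -1.18 against -0.03. Groups did not overlap for 36 members in iWAT (39.1% of all genes) and for 38 in BAT (47.7% of all genes). The 26 genes called lower in iWAT and the 26 in BAT shared 23 genes, which is 88.5% of each list. In bulk tissue fewer cells of a type and less RNA per cell cannot be told apart.

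**Figure D1:**
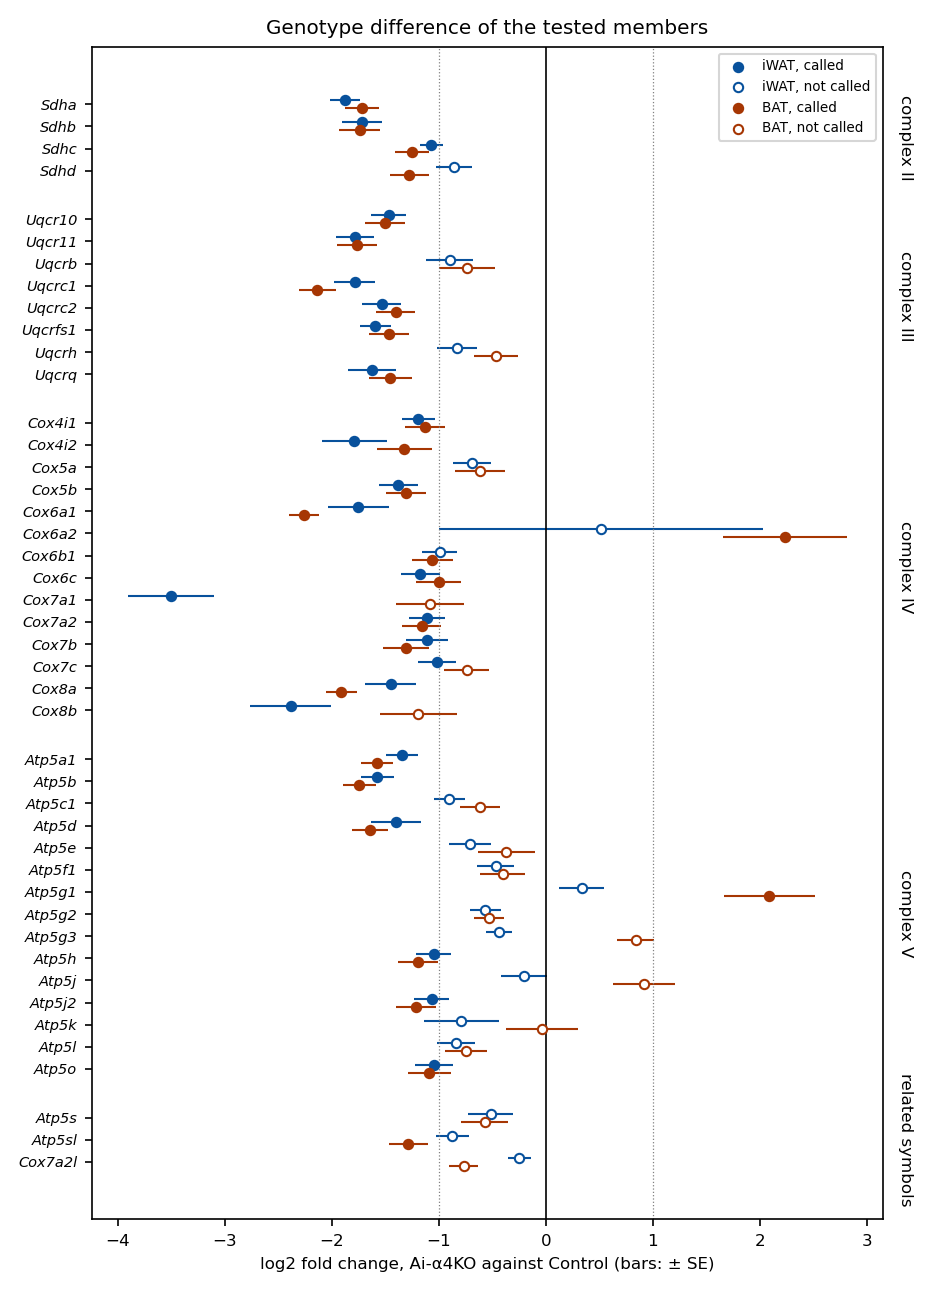
Log2 fold change of Ai-α4KO against Control for the 44 tested members, in iWAT (blue) and BAT (brown), ordered by complex. Bars are standard errors, filled points passed the call (adjusted p below 0.01 and at least 2-fold, dotted lines), and the 2 filled points right of 0 are Cox6a2 and Atp5g1 in BAT.

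Markers of the cells in these tissues moved with the genotype. Of 12 adipocyte markers 10 were called lower in iWAT (median log2 fold change -1.60) and 8 in BAT (-1.56). Their summed level was 37450 to 50590 CPM in Control iWAT and 13320 to 19720 CPM in Ai-α4KO iWAT. For BAT the sums were 30410 to 32730 CPM (Control) and 14720 to 19130 CPM (Ai-α4KO). All 8 macrophage markers in the table were called higher in both tissues, from a sum of 1167 to 1874 CPM to one of 6781 to 8851 CPM in iWAT, and from 229.7 to 509 CPM to 3973 to 6780 CPM in BAT. Of 5 endothelial markers 4 were called lower in each tissue, from 329.7 to 461 CPM to 139.0 to 194 CPM in iWAT and from 647 to 989 CPM to 228 to 321 CPM in BAT. None of the adipocyte, macrophage or endothelial markers was at 0 in any library. Their part in the fall of the respiratory genes was not tested.

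The genes of complex II were lower in both tissues. The complex has 4 subunits, all nuclear, and 3 of 4 were called lower in iWAT and 4 of 4 in BAT. Sdha, the flavoprotein that oxidises succinate, stood at 303, 488, 516, 429 and 465 RPKM in the 5 Control iWAT libraries and at 131, 109, 99.6, 116 and 103 RPKM in the Ai-α4KO ones. In BAT it stood at 1169, 1038, 1381, 1071 and 1210 RPKM in Control and 302, 294, 349, 415 and 415 RPKM in Ai-α4KO libraries. The groups did not overlap in either tissue, and the log2 fold changes were -1.87 ± 0.14 (SE, iWAT) and -1.72 ± 0.16 (SE, BAT; edgeR adjusted p = 3.81e-06 and 2.03e-06).

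Sdhb, the iron-sulfur subunit, was at 325, 482, 649, 403 and 397 RPKM in Control iWAT and 161, 137, 112, 112 and 117 RPKM in Ai-α4KO iWAT. Its BAT values were 1689, 1547, 1480, 1383 and 1318 RPKM in Control and 341, 311, 439, 564 and 548 RPKM in Ai-α4KO libraries. Its log2 fold changes were -1.71 ± 0.18 (iWAT) and -1.74 ± 0.19 (BAT, edgeR adjusted p = 2.22e-05 and 8.5e-06), without overlap. Sdhc and Sdhd anchor the complex in the membrane. Sdhc was at 184, 249, 269, 228 and 215 RPKM in Control and 108, 96.8, 100.1, 104 and 97.9 RPKM in Ai-α4KO iWAT, a log2 fold change of -1.07 ± 0.11 (edgeR adjusted p = 1.47e-05) that fell short of the fold threshold without TMM factors and with limma on log2 FPKM (-0.92 to -0.95). In BAT Sdhc was at 621, 579, 601, 589.8 and 540.5 RPKM in Control and 194, 183, 252.1, 299 and 294 RPKM in Ai-α4KO libraries, a log2 fold change of -1.25 ± 0.16 (edgeR adjusted p = 3.39e-05). Again no Ai-α4KO library reached a Control library of its tissue.

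Sdhd was at 256, 399, 495, 302 and 283 RPKM in Control and 175, 192, 186, 165 and 172 RPKM in Ai-α4KO iWAT. It passed the p threshold there but not the fold (log2 fold change -0.86 ± 0.17, edgeR adjusted p = 0.00146). Without Control iWAT libraries 1 and 4, which had high B cell markers, Sdhd was called lower (-1.10, edgeR adjusted p = 0.00054), as it was without library 1 alone (-1.01, edgeR adjusted p = 0.000633). That omission, chosen after seeing the data, gave 31 members called lower in iWAT in place of 26, adding Sdhd, Uqcrb (-1.09), Cox6b1 (-1.19), Atp5c1 (-1.08) and Atp5l (-1.01). The share of all genes called in that fit was not counted. In BAT Sdhd was at 1168, 1003, 1171, 1024 and 941 RPKM in Control and 328, 311, 488, 506 and 539.9 RPKM in Ai-α4KO libraries, and was called lower (-1.28 ± 0.18, edgeR adjusted p = 7.65e-05). The difference between the tissues was not past the interaction threshold for any gene of this complex.

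In complex III, 6 of 8 members were called lower in each tissue, and the medians on the log2 scale were -1.56 (iWAT) and -1.46 (BAT). The lowest in iWAT were Uqcrc1, a core subunit, at -1.79 ± 0.19, and Uqcr11, a small accessory subunit, at -1.78 ± 0.18 (edgeR adjusted p = 2.14e-05 and 1.46e-05). The same genes were lowest in BAT, at -2.14 ± 0.17 and -1.76 ± 0.19 (edgeR adjusted p = 7.8e-07 and 7.9e-06). Uqcrc1 averaged 267 ± 43.1 RPKM (SD, n = 5) in Control iWAT and 72.3 ± 22.9 RPKM (SD, n = 5) in Ai-α4KO iWAT. In BAT its Control libraries lay between 1039 and 1183 RPKM and its Ai-α4KO libraries between 197 and 327 RPKM, so that the highest knockout library was under every control by a wide margin.

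The hinge protein Uqcrh and the small subunit Uqcrb stood at the other end of complex III. For Uqcrh the log2 fold changes were -0.83 ± 0.19 (iWAT) and -0.46 ± 0.21 (BAT, edgeR adjusted p = 0.00305 and 0.069). Its Ai-α4KO BAT libraries were uneven, at 1154, 1138, 1941, 2005 and 2184 RPKM, against 2785, 2257, 2418, 2122 and 2135 RPKM in Control BAT. Uqcrb had -0.90 ± 0.22 and -0.74 ± 0.26 (edgeR adjusted p = 0.00494 and 0.0254), and neither gene reached the fold threshold in either tissue with all libraries. In Ai-α4KO BAT both genes were high in libraries 3 to 5 and low in libraries 1 and 2.

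That division of the Ai-α4KO BAT libraries ran through nearly all members. For 43 of 44 tested members libraries 3, 4 and 5, which had the highest skeletal muscle markers, were all above libraries 1 and 2. The part of skeletal muscle in this division was not tested. For 40 members libraries 1 and 2 were both below every Control BAT library, and for 35 members libraries 3 to 5 were. The same counts were not made over all genes, so they cannot show that the division is particular to the members. Without these 3 libraries and Control BAT library 1, an omission chosen after seeing the data, 36 members were called lower and 0 higher, Uqcrb (-1.48), Cox7c (-1.24) and Cox5a (-1.20) among them, and the median log2 fold change was -1.53. This fit kept 2 Ai-α4KO libraries, the lower ones, against 4 Control libraries, so the choice itself favours a larger fall. The share of all genes called in that fit was not counted.

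In complex IV, 11 of 14 tested members were called lower in iWAT and 0 higher, and in BAT 9 were called lower and 1 higher. The 2 lowest in iWAT were Cox7a1 and Cox8b, and the 2 lowest in BAT were Cox6a1 and Cox8a. Of the subunits outside the pairs followed below, Cox5b fell in both tissues (-1.38 and -1.30 on the log2 scale, edgeR adjusted p = 9.68e-05 and 7.95e-05), as did Cox7b (-1.11 and -1.31, edgeR adjusted p = 0.000656 and 0.000219), the partner of Cox7b2. In iWAT Cox7b lost the call without TMM factors and in fits of log2 FPKM with limma (-0.93 to -0.98). Cox6c fell in iWAT (-1.17, edgeR adjusted p = 0.000265) and only just reached the fold in BAT (-1.002, edgeR adjusted p = 0.00146). Its BAT call was lost with the skeletal muscle markers as a covariate (-1.13, edgeR adjusted p = 0.0163), with DESeq2 (-0.97), without TMM factors and with limma (-0.76 to -0.79), and when Control library 1 or 3 or Ai-α4KO library 1 or 2 was left out (-0.88 to -0.995). The call was also lost with upper-quartile scaling (-0.97), at least 10 counts in every library (-0.95) and a fit of all 20 libraries (-0.96). Cox5a was at the other end with -0.69 ± 0.18 in iWAT and -0.61 ± 0.24 in BAT (edgeR adjusted p = 0.00752 and 0.0373) and was not called. Cox7c was called lower in iWAT (-1.02 ± 0.18, edgeR adjusted p = 0.000552), close to the fold threshold. It fell short of it with the replicate block (-0.99), without the libraries that stand apart in skeletal muscle markers (-0.90), without TMM factors and with limma (-0.86 to -0.89), and when Control iWAT library 2, 3 or 4 or Ai-α4KO iWAT library 1 or 4 was left out (-0.95 to -0.998). In BAT it passed the p threshold without the fold (-0.74 ± 0.21, edgeR adjusted p = 0.00883).

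The Cox7a pair holds 1 of the 2 members past the interaction threshold. Cox7a1 is the form of heart, skeletal muscle and brown fat, and Cox7a2 is the form of most tissues. In the annotation of the deposited table (mm10) Cox7a1 lies at chr7:30184171-30186030 on the plus strand and Cox7a2 at chr9:79755241-79759853 on the minus strand. Cox7a1 was at 49.2, 150.2, 219.6, 125 and 61.1 RPKM in Control iWAT and at 14.6, 9.67, 9.04, 7.84 and 8.62 RPKM in Ai-α4KO iWAT. The highest Ai-α4KO iWAT library, library 1, was far under the lowest Control library. This was an 11.3-fold fall (log2 fold change -3.50 ± 0.40, edgeR adjusted p = 3.39e-05), and the lowest log2 fold change of the 44 members.

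In BAT Cox7a1 was at 1683, 1193, 1263, 1254 and 1158 RPKM in Control and 288, 302, 739.5, 797 and 925 RPKM in Ai-α4KO libraries. All 5 knockout libraries were below the controls, those of libraries 1 and 2 the furthest, and the log2 fold change of -1.08 ± 0.32 missed the call (edgeR adjusted p = 0.0103). Without the libraries that stand apart in skeletal muscle markers it was -2.01 ± 0.13 (edgeR adjusted p = 1.44e-05), and with these markers as a covariate it was -1.22 ± 0.51 (edgeR adjusted p = 0.0742). The omission kept Ai-α4KO libraries 1 and 2 only, and the summed markers did not overlap between the genotypes in BAT. The call was met with DESeq2 (-1.05, adjusted p = 0.00159), without the filter on low counts (-1.10, edgeR adjusted p = 0.0088) and without Ai-α4KO library 4 or 5 (-1.16 and -1.28, edgeR adjusted p = 0.00998 and 0.00572).

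Cox7a2 was called lower in both tissues, and fell short of the fold threshold in both without TMM factors (-0.98 and -0.91) and with limma on log2 FPKM (-0.95 and -0.93). It was at 269.7, 418, 528, 408 and 357 RPKM in Control and 151, 205, 169, 154 and 174 RPKM in Ai-α4KO iWAT (log2 fold change -1.11 ± 0.17, edgeR adjusted p = 0.000238). In BAT it was at 1286, 1022, 1089, 945 and 1066 RPKM in Control and 358, 349, 574, 542 and 576 RPKM in Ai-α4KO libraries (-1.16 ± 0.18, edgeR adjusted p = 0.000157). In iWAT and BAT alike, every knockout library was below every control library.

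As a share of the summed RPKM of the pair, Cox7a1 made up 21.9% ± 6.59 (SD, n = 5) of Control iWAT against 5.59% ± 1.82 with α4 lost. In BAT the shares were 54.7% ± 2.12 for Control and 53.7% ± 7.72 for the knockout. The log2 ratio of Cox7a1 to Cox7a2 was lower by 2.23 in Ai-α4KO iWAT (exact two-sided permutation test, p = 0.0079, Benjamini-Hochberg adjusted p = 0.019 over 21 ratio tests), where 0.0079 is the smallest p that 5 against 5 libraries can give. In BAT the difference was -0.05 (exact permutation p = 0.79), while the knockout libraries 1 and 2 had shares of 44.6% and 46.5% and libraries 3 to 5 had 56.3%, 59.5% and 61.6%. Without the libraries that stand apart in skeletal muscle markers the BAT difference was -0.50 and the groups did not overlap, with too few libraries to pass. Most brown adipocyte markers were called lower in both tissues. In iWAT 7 of 9 tested were called lower, with a sum over 10 genes of 250.3 to 1175 CPM in Control and 54.4 to 95.0 CPM in Ai-α4KO libraries. In BAT 6 of 10 were called lower, and the sums were 9037 to 13380 CPM (Control) and 1684 to 3245 CPM (Ai-α4KO). Ucp1 alone made up 4244 to 6893 CPM of the Control BAT sums. In BAT the log2 fold changes of Dio2 (0.40) and Elovl3 (0.36) were above 0. Those of Ppargc1a (-0.15) and Zic1 (-0.78) were below 0 without the call. Zic1 was at 0 in some iWAT libraries of both genotypes, and the part of the brown adipocyte markers in the values of Cox7a1 was not tested.

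Cox8b and Cox8a form the other pair with a form of muscle and brown fat (Cox8b) and a form of most tissues (Cox8a). Cox8b lies at chr7:140898942-140900446 and Cox8a at chr19:7215158-7217616, both on the minus strand. Cox8b was at 118, 353, 387, 186 and 112 RPKM in Control and 48.0, 36.8, 24.4, 57.0 and 40.1 RPKM in Ai-α4KO iWAT, with no overlap, a log2 fold change of -2.38 ± 0.38 (edgeR adjusted p = 0.000313). Its BAT values were 2824, 1817, 2127, 2071 and 1698 RPKM in Control and 423, 361, 1171, 1201 and 1397 RPKM in Ai-α4KO libraries. The estimate of -1.19 ± 0.36 in BAT missed the call (edgeR adjusted p = 0.0121), and it was -2.27 ± 0.17 (edgeR adjusted p = 2.21e-05) without the libraries that stand apart in skeletal muscle markers. With these markers as a covariate it was -1.28 ± 0.59 (edgeR adjusted p = 0.0995), with the same limits as for Cox7a1 in both fits. It was called with DESeq2 (-1.16, adjusted p = 0.00165) and without Ai-α4KO library 5 (-1.40, edgeR adjusted p = 0.0079).

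Cox8a was at 996, 818, 1226, 767 and 941 RPKM in Control and 572, 278, 239, 286 and 252.5 RPKM in Ai-α4KO iWAT (log2 fold change -1.45 ± 0.24, edgeR adjusted p = 0.000396). Library 1 of the knockout group, the one with high skeletal muscle markers, lay well above the other 4. In BAT Cox8a was at 2281, 1642, 1943, 1653 and 1944 RPKM in Control and 473, 416, 555, 479 and 575 RPKM in Ai-α4KO libraries (-1.91 ± 0.14, edgeR adjusted p = 4.46e-07). The share of Cox8b in the pair was 18.98% ± 8.50 in Control iWAT, 11.8% ± 3.52 in Ai-α4KO iWAT, 52.5% ± 3.62 in Control BAT and 60.8% ± 12.8 in Ai-α4KO BAT (SD, n = 5 each). The log2 ratio did not pass its test between genotypes in either tissue, with differences of -0.74 in iWAT and 0.52 in BAT (exact permutation p = 0.13 and 0.17). In BAT the difference turned to -0.28 without the libraries that stand apart in skeletal muscle markers.

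The promoters of this pair are shown because the isoforms differ in tissue and because letters known as an ETS/GABP site (CCGGAAG, either strand, in capitals) occur in one of them. Sequences are from RefSeq, build GRCm38.p6, 5′ to 3′ on the gene's strand, from 250 bases before the start to 50 after it.
Cox8a promoter, chr19:7217567-7217866 (- strand): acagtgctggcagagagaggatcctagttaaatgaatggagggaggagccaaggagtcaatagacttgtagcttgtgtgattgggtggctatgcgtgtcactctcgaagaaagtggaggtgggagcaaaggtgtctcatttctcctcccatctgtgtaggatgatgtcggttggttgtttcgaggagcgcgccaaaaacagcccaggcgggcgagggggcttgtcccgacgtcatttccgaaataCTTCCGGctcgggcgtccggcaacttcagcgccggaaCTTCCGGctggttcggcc
Cox8b promoter, chr7:140900397-140900696 (- strand): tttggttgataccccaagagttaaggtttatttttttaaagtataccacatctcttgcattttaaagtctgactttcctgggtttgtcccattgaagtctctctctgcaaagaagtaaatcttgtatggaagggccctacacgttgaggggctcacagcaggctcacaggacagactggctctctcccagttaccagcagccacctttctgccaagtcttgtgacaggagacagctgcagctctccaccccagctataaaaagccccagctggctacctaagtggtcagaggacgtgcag
The Cox8a window holds 2 matches, both on the opposite strand, and the Cox8b window holds none of the 4 motifs searched. A match is a description of the letters and no evidence of binding.

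In the Cox6a pair the isoforms went opposite ways in BAT. Cox6a1 is the form of most tissues and Cox6a2 that of heart and skeletal muscle. Cox6a1 was at 3094, 2354, 2861, 2404 and 2563 RPKM in Control BAT and 508, 477, 564, 552 and 658 RPKM in Ai-α4KO BAT, the lowest log2 fold change of any member in that tissue (-2.26 ± 0.14, edgeR adjusted p = 1.21e-07). In iWAT it was at 952, 794, 1182, 813 and 1030 RPKM in Control and 529.9, 204, 189, 206 and 198 RPKM in Ai-α4KO libraries (-1.75 ± 0.29, edgeR adjusted p = 0.000369). Ai-α4KO iWAT library 1 again lay above the rest of its group, without reaching a control.

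Cox6a2 was at 11.4, 128, 78.1, 79.4 and 105 RPKM in Control BAT and 141, 172, 368, 705 and 483 RPKM in Ai-α4KO BAT, without overlap. It was called higher by 2.23 ± 0.58 on the log2 scale (edgeR adjusted p = 0.005), a call lost when Control library 3 or 4 or Ai-α4KO library 3, 4 or 5 was left out (1.91 to 2.23). Cox6a2 also lost the call in a fit of all 20 libraries (2.27, edgeR adjusted p = 0.106). Its share of the pair went from 3.06% ± 1.77 to 37.2% ± 13.6 (SD, n = 5), and the log2 ratio of Cox6a2 to Cox6a1 rose by 4.59 (exact permutation p = 0.0079, Benjamini-Hochberg adjusted p = 0.019). The difference in that ratio was 3.07 without the libraries that stand apart in skeletal muscle markers, which leaves too few libraries to pass.

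Skeletal muscle markers moved with Cox6a2. The lowest Control BAT value was in library 1, which had the lowest marker sum of that group, and the highest Ai-α4KO value was in library 4, which had the highest. Of 18 skeletal muscle markers 13 were called higher in Ai-α4KO BAT (median log2 fold change 2.05), and none was at 0 in any BAT library. With the mean level of these markers as a covariate the log2 fold change of Cox6a2 in BAT was -0.08 ± 0.24 (edgeR adjusted p = 0.823). In BAT the marker sums did not overlap between the genotypes, at 1578 to 16270 CPM in Control and 22170 to 72940 CPM in Ai-α4KO libraries. This fit therefore cannot cleanly separate the markers from genotype. With the libraries that stand apart left out the log2 fold change of Cox6a2 was 0.71 ± 0.21 (edgeR adjusted p = 0.0217). The 2 Ai-α4KO libraries kept still summed to 22170 and 24340 CPM, against 8834 to 16270 CPM in the Control libraries kept. The part of skeletal muscle in these values was not tested.

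In iWAT Cox6a2 was at 2.19, 0.587, 0.117, 34.2 and 0.836 RPKM in Control and 47.3, 2.10, 1.64, 1.06 and 0.371 RPKM in Ai-α4KO libraries. One library of each group, Control 4 and Ai-α4KO 1, held most of its signal, and these are the libraries with high skeletal muscle markers. The log2 fold change of 0.51 ± 1.51 was not past the test (edgeR adjusted p = 0.793), and it was -2.44 without Ai-α4KO library 1 and 3.50 at the other extreme, without Control library 4. It was 0.54 without both and 1.12 with the skeletal muscle markers as a covariate (edgeR adjusted p = 0.559 and 0.0942).

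**Figure D2:**
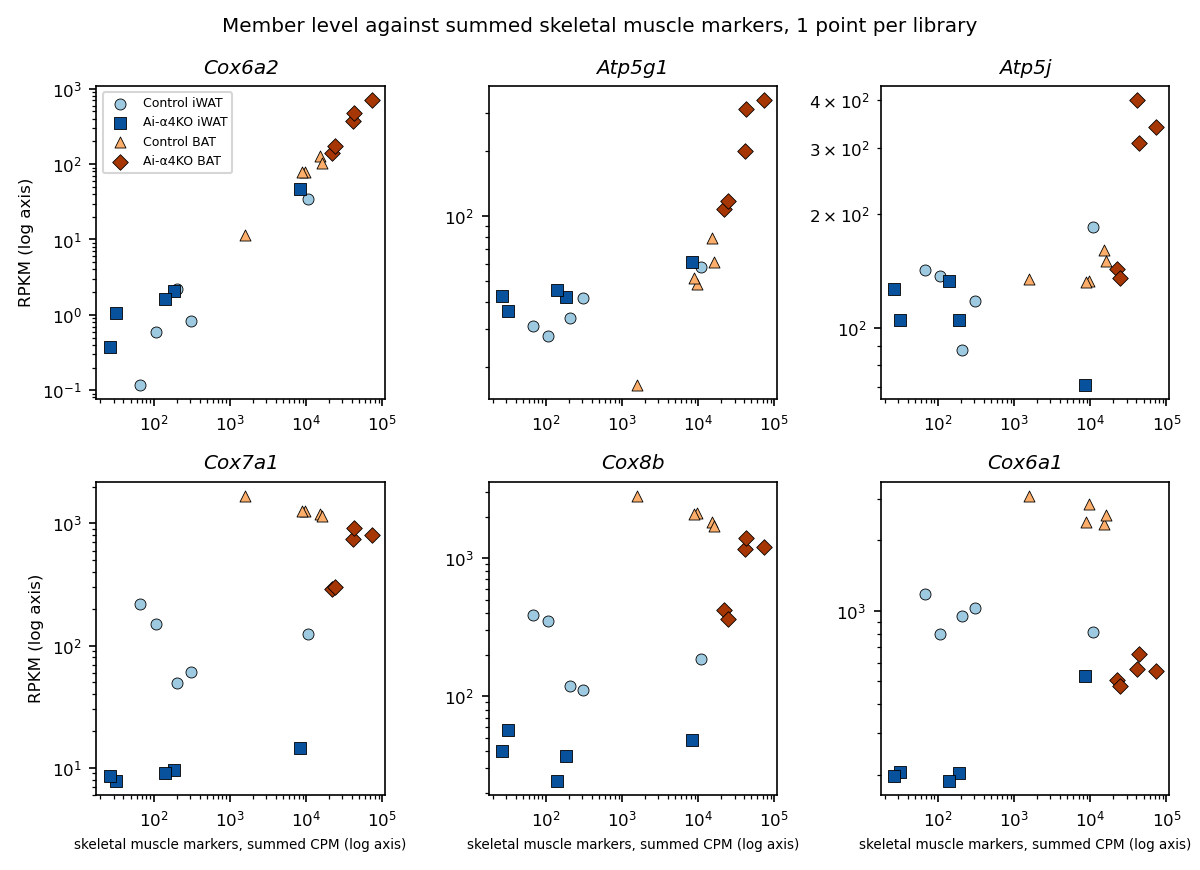
Level of 6 members in RPKM against the summed CPM of 18 skeletal muscle markers, both on log axes, with 1 point per library and 5 libraries per group. Cox6a2 and Atp5g1 are highest in the Ai-α4KO BAT libraries with the highest marker sums, 704.9 and 342.7 RPKM in library 4, while Cox6a1 in all Ai-α4KO BAT libraries stays at or below 658 RPKM.

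In the Cox4 family both genes were called lower in both tissues, and both lost the call in BAT with the skeletal muscle markers as a covariate (Cox4i1 -0.999, edgeR adjusted p = 0.0146, and Cox4i2 -1.22, edgeR adjusted p = 0.0298). Without the covariate these estimates were -1.13 and -1.32, and the covariate cannot cleanly separate the markers from genotype in BAT. Cox4i1, the main form of the largest nuclear subunit, was at 753, 1050, 1442, 1024 and 882 RPKM in Control and 426, 427, 398, 422 and 424 RPKM in Ai-α4KO iWAT (log2 fold change -1.19 ± 0.16, edgeR adjusted p = 7.88e-05). In brown fat it measured 2990, 1961, 2139, 2356 and 2142 RPKM in Control and 863, 777, 1060, 1163 and 1404 RPKM in Ai-α4KO libraries (-1.13 ± 0.19, edgeR adjusted p = 0.000238), and the BAT value was -0.88 without TMM factors and with limma. Every knockout library lay below the controls of its tissue.

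Cox4i2, a form known from lung and induced by low oxygen, was at 2.94, 2.30, 2.70, 2.79 and 3.16 RPKM in Control and 0.503, 1.17, 0.876, 0.752 and 0.404 RPKM in Ai-α4KO iWAT (-1.79 ± 0.30, edgeR adjusted p = 0.000503). BAT held it at 8.15, 4.92, 5.36, 7.89 and 6.87 RPKM in Control and 2.13, 1.98, 2.14, 2.76 and 4.18 RPKM in Ai-α4KO libraries (-1.32 ± 0.26, edgeR adjusted p = 0.000833). The groups did not overlap, on 12 to 157 counts per library, and with limma on log2(FPKM + 1) both values fell short of the fold (-0.98 and -0.83). Its share of the pair was 0.285% in both Control tissues, 0.177% in Ai-α4KO iWAT and 0.247% in Ai-α4KO BAT, and no ratio passed its test. Pericytes are a known source of Cox4i2. Of 7 pericyte markers 2 were called lower in iWAT and 4 in BAT, with sums of 230.4 to 389 CPM in Control and 105 to 169 CPM in Ai-α4KO iWAT, and of 439.8 to 552 and 245 to 342 CPM in BAT. None of them was at 0 in any library, and their part in the result was not tested.

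Cox6b1 was at 886, 1318, 1803, 1295 and 1135 RPKM in Control and 643, 653, 584, 562 and 572 RPKM in Ai-α4KO iWAT, just short of the fold threshold (log2 fold change -0.99 ± 0.16, edgeR adjusted p = 0.000415). It passed the call with upper-quartile scaling, with DESeq2, and without Control library 1, Control library 5, Ai-α4KO library 2 or the Control libraries with high B cell markers, at -1.02 to -1.19. In BAT it was at 4038, 3337, 3498, 3412 and 3337 RPKM in Control and 1240, 1164, 1891, 1929 and 2154 RPKM in Ai-α4KO libraries, and was called lower (-1.06 ± 0.19, edgeR adjusted p = 0.00042), a call lost without Ai-α4KO library 1 or 2 (-0.96 and -0.95), without TMM factors and with limma (-0.815 to -0.84). Cox6b2 made up at most 0.0762% of the Cox6b sum in any library.

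**Figure D3:**
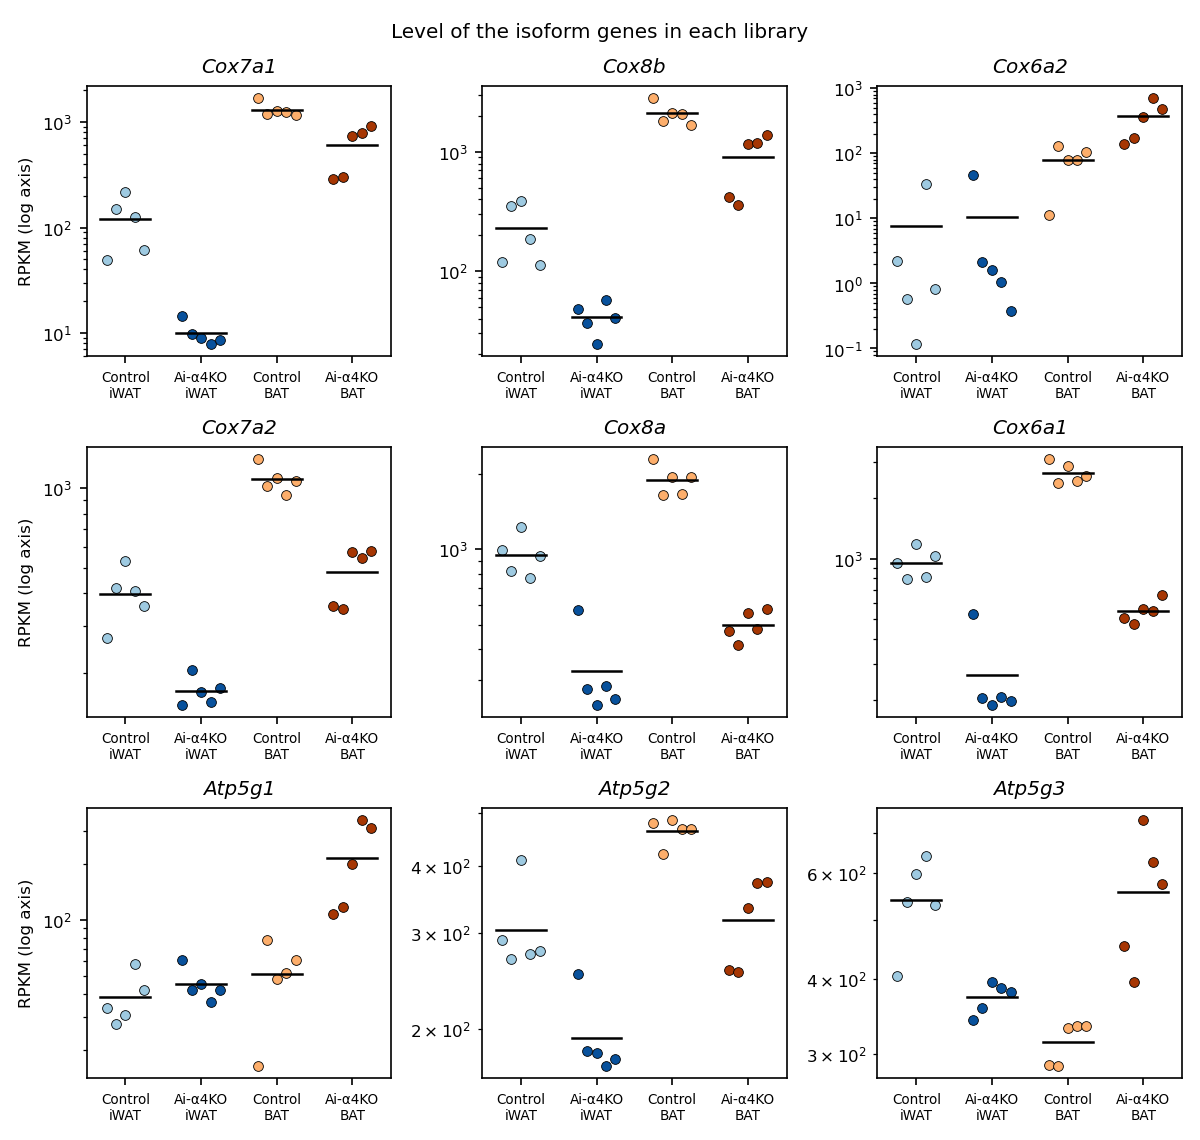
RPKM of 9 isoform genes in each of the 20 libraries, on log axes that differ between panels, with the mean of 5 libraries as a line. Cox7a1 in Ai-α4KO iWAT lies between 7.84 and 14.6 RPKM, under every Control iWAT library, and Atp5g3 lies higher in Ai-α4KO BAT (395 to 734 RPKM) than in Control BAT (286 to 334 RPKM).

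Complex V held genes that moved in opposite directions. In each tissue 6 of 15 members were called lower, and Atp5g1 was called higher in BAT. The medians were -0.84 in iWAT and -0.61 in BAT on the log2 scale. The lowest in iWAT were Atp5b and Atp5d, the β and δ subunits of ATP synthase, at -1.57 ± 0.15 and -1.40 ± 0.23 (edgeR adjusted p = 1.2e-05 and 0.000396). The same genes were lowest in BAT, at -1.74 ± 0.16 and -1.64 ± 0.17 (edgeR adjusted p = 1.83e-06 and 4.96e-06). Atp5a1, the α subunit, and the stalk and membrane subunits Atp5h, Atp5j2 and Atp5o were the others called lower, in both tissues. For Atp5h, Atp5j2 and Atp5o the iWAT call was lost without Control library 3 (-0.96, -0.97 and -0.92), and Atp5o lost its BAT call without Ai-α4KO library 1 or 2 (-0.99 and -0.97). In both tissues these 3 genes fell short of the fold without TMM factors and with limma (-0.84 to -0.99).

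Atp5b was at 1355, 1651, 2047, 1517 and 1702 RPKM in Control and 698, 497, 432, 509 and 455 RPKM in Ai-α4KO iWAT. Its BAT values were 4843, 4323, 4977, 4365 and 4860 RPKM in Control and 1210, 1131, 1317, 1685 and 1598 RPKM in Ai-α4KO libraries. The lowest control was above the highest knockout library in both tissues.

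At the upper end were genes for subunit c, the rotating ring, and Atp5j, coupling factor 6 of the stator stalk. Atp5j was at 135, 161, 133, 133 and 151 RPKM in Control BAT and 144, 136, 400.3, 341 and 309 RPKM in Ai-α4KO BAT. Its knockout libraries 3 to 5 stood far above all others and libraries 1 and 2 within the control range. The log2 fold change was 0.92 ± 0.29 in BAT and -0.20 ± 0.21 in iWAT (edgeR adjusted p = 0.0145 and 0.446), and in BAT it was -0.02 ± 0.13 (edgeR adjusted p = 0.91) without the libraries that stand apart in skeletal muscle markers. That omission kept Ai-α4KO libraries 1 and 2 only. Atp5j was called higher in BAT without Ai-α4KO library 1 or 2 (1.08 and 1.09), without TMM factors (1.15) and with limma (1.04).

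Subunit c is made from Atp5g1, Atp5g2 and Atp5g3, which lie at chr11:96072793-96075694, chr15:102662868-102671047 and chr2:73908447-73911326, all on the minus strand. Atp5g1 was at 33.7, 27.8, 30.9, 58.0 and 41.8 RPKM in Control and 61.0, 41.9, 45.1, 36.3 and 42.2 RPKM in Ai-α4KO iWAT, overlapping ranges with a log2 fold change of 0.33 ± 0.21 (edgeR adjusted p = 0.19). In brown fat it measured 16.4, 78.4, 48.2, 51.5 and 61.0 RPKM in Control and 108, 117, 199, 343 and 312 RPKM in Ai-α4KO libraries. Every knockout value was above every control value, and the gene was called higher (2.09 ± 0.43, edgeR adjusted p = 0.0011). As with Cox6a2, the lowest Control value was in library 1 and the highest Ai-α4KO value in library 4. With the skeletal muscle markers as a covariate the log2 fold change was 0.54 ± 0.27 (edgeR adjusted p = 0.135), and with the libraries that stand apart left out it was 0.94 ± 0.19 (edgeR adjusted p = 0.00392). As for Cox6a2, the covariate cannot cleanly separate markers and genotype in BAT, and the omission keeps libraries unequal in these markers.

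Atp5g2 was at 292, 269, 409, 274 and 278 RPKM in Control and 252.1, 182, 181, 171 and 176 RPKM in Ai-α4KO iWAT (log2 fold change -0.56 ± 0.15, edgeR adjusted p = 0.00764). BAT held it at 480.3, 420.3, 485, 467 and 468 RPKM in Control and 257, 254, 334, 371 and 373 RPKM in Ai-α4KO libraries (-0.53 ± 0.14, edgeR adjusted p = 0.00574). It was lower past the p threshold, and short of the fold threshold, in both tissues.

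Atp5g3 was at 404, 536, 597, 639.5 and 529.7 RPKM in Control and 341, 358, 395, 386 and 380.4 RPKM in Ai-α4KO iWAT (-0.44 ± 0.12, edgeR adjusted p = 0.0121). In BAT it was at 287, 286, 331, 334 and 333 RPKM in Control and 453, 395, 734, 626 and 576 RPKM in Ai-α4KO libraries, all above the controls (0.84 ± 0.17, edgeR adjusted p = 0.00113), and was called higher without TMM factors and with limma (1.07 to 1.08). In BAT it was 0.56 (edgeR adjusted p = 0.0915) with the skeletal muscle markers as a covariate and 0.43 (edgeR adjusted p = 0.0214) without the libraries that stand apart in them. The limits given for Cox6a2 hold for both fits. Atp5g3 was the only one of the 44 members with a lower estimate in Control BAT than in Control iWAT.

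The make-up of the subunit c transcripts differed between genotypes in BAT. Atp5g1, Atp5g2 and Atp5g3 made up 6.16% ± 2.85, 56.0% ± 3.09 and 37.8% ± 1.22 of their summed RPKM in Control BAT and 18.9% ± 5.81, 29.7% ± 2.75 and 51.5% ± 5.32 in Ai-α4KO BAT (SD, n = 5). The log2 ratio of Atp5g1 to Atp5g2 rose by 2.65 and that of Atp5g2 to Atp5g3 fell by 1.36 (exact permutation p = 0.0079 for each, Benjamini-Hochberg adjusted p = 0.019). Without the libraries that stand apart in skeletal muscle markers these differences were 1.78 and -1.25, again with too few libraries to pass. In iWAT the shares were 4.37%, 34.5% and 61.1% in Control and 7.39%, 31.4% and 61.2% in Ai-α4KO libraries. There the log2 ratio of Atp5g1 rose by 0.92 to Atp5g2 and by 0.79 to Atp5g3 (exact permutation p = 0.0079 for each, adjusted p = 0.019). The summed RPKM of the 3 genes was 829.4 ± 41.5 in Control BAT and 1090 ± 275 in Ai-α4KO BAT, with 818 and 766 RPKM in knockout libraries 1 and 2, and in iWAT it was 884 ± 121 and 609.7 ± 28.8 RPKM.

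**Figure D4:**
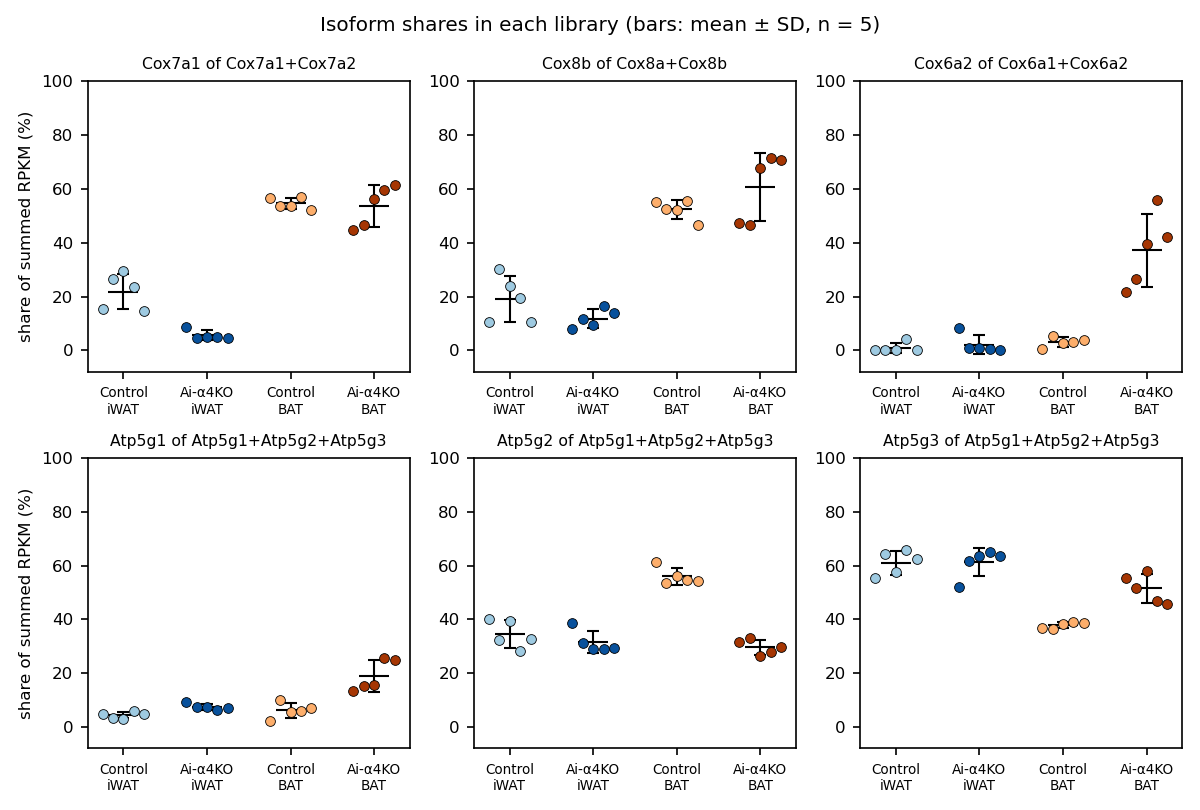
Share of each isoform gene in the summed RPKM of its family, in percent, for each library, with the mean ± SD of 5 libraries. Cox7a1 falls from 21.9% to 5.59% of its pair in iWAT and is near 54% in both BAT groups (54.7% and 53.7%), and Cox6a2 reaches 37.2% of its pair only in Ai-α4KO BAT.

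The promoters of the subunit c genes are shown because they code for one mature protein and moved unlike each other. Capitals mark a match to an NRF1 site (TGCGCATG) in Atp5g2 and to an estrogen-related receptor site (TCAAGGTCA) in Atp5g3, each on the opposite strand. The promoter of Uqcrc1, among the genes that fell most in both tissues, follows for comparison.
Atp5g1 promoter, chr11:96075582-96075881 (- strand): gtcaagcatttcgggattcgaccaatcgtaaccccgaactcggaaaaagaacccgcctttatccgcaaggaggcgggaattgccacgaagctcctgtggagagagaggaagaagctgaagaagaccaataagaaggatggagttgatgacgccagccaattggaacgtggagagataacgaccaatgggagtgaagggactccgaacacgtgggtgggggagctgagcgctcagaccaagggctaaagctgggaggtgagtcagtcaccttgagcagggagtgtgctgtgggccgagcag
Atp5g2 promoter, chr15:102670998-102671297 (- strand): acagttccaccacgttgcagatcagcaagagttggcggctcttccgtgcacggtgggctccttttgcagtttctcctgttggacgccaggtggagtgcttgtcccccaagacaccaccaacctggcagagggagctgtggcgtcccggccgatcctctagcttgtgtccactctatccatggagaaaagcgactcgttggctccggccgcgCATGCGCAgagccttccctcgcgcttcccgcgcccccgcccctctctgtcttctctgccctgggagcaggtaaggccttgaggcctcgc
Atp5g3 promoter, chr2:73911277-73911576 (- strand): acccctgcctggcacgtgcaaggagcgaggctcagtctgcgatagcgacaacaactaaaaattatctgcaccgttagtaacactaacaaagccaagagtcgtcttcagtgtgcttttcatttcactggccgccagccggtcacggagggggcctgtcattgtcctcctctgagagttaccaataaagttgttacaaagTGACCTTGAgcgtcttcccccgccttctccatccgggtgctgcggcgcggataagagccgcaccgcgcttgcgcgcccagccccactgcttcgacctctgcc
Uqcrc1 promoter, chr9:108936398-108936697 (+ strand): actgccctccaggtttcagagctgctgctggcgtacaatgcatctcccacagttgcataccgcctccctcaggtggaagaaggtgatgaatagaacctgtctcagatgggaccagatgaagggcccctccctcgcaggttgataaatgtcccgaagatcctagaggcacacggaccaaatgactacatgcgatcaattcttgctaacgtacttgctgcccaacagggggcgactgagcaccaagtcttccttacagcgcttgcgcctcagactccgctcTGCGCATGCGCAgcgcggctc
Atp5g1 holds no match to any of the 4 motifs. In Uqcrc1 the NRF1 letters occur on both strands in a palindrome, so the 2 matches overlap.

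Over all members, 37 of 47 had a promoter entry in the RefSeq table. The ETS/GABP letters CCGGAAG were found in 12 of these 37 genes (32.4%), against 9.93% of all genes in that table. The NRF1 letters TGCGCATG were in 4 genes (10.8%, against 2.42%), the YY1 letters AAGATGGCG in 3 (8.1%, against 1.64%) and the estrogen-related receptor letters TCAAGGTCA in Atp5g3 and Sdhd (5.4%, against 0.466%). Some genes have more than 1 window, and a gene was counted when any of them matched. Both strands were searched.

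Of the 3 genes that share a symbol without being subunits, 0 were called in iWAT and 1 in BAT. Cox7a2l, a factor that joins complexes III and IV into supercomplexes, was at 119, 122, 142, 132 and 103 RPKM in Control and 93.5, 102, 100.4, 88.1 and 100.4 RPKM in Ai-α4KO iWAT (log2 fold change -0.25 ± 0.11, edgeR adjusted p = 0.0724). Its BAT values were 249.7, 194, 231, 208 and 204 RPKM in Control and 105, 111, 128, 134 and 157 RPKM in Ai-α4KO libraries (-0.77 ± 0.14, edgeR adjusted p = 0.000379). It was not called in either tissue. Atp5sl was called lower in BAT (-1.28 ± 0.18, edgeR adjusted p = 7.35e-05, but -0.96 with limma on log2(FPKM + 1)), and not in iWAT (-0.87 ± 0.15, edgeR adjusted p = 0.000574). Atp5s was not called in either tissue (-0.51 and -0.57, edgeR adjusted p = 0.0552 and 0.0402).

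Most members differed between the tissues in the absence of the knockout, with higher levels in BAT. In Control mice 35 of 44 tested members were called higher in BAT than in iWAT and 0 lower, where 7.22% of all genes tested were called higher and 14.7% lower. The median log2 fold change was 1.43, against -0.01 over all genes, and the groups did not overlap for 41 members (37.4% of all genes). This comparison uses the same Control libraries as the genotype comparisons, so their values are set side by side only. All members of complexes II and III were called higher, 12 of 14 tested in complex IV and 10 of 15 in complex V. Some of these calls ended under alternatives. Atp5k lost it without TMM factors, with upper-quartile scaling and with limma (0.88 to 0.99), and in a fit of all 20 libraries. It also lost it with the skeletal muscle covariate and without Control iWAT library 1 or 5 or Control BAT library 1, 2 or 3. Cox4i1 and Cox4i2 fell short of the fold with limma (0.79 to 0.99), as did Cox4i1 (0.95) and Atp5f1 (0.98) without TMM factors. The covariate also ended the Cox4i2 call.

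The isoforms of muscle and brown fat had the highest estimates of the 44 members. Cox7a1 was 10.6-fold and Cox8b 8.87-fold higher in Control BAT (log2 fold change 3.40 ± 0.38 and 3.15 ± 0.37, edgeR adjusted p = 3.54e-05 and 4.84e-05). Their partners Cox7a2 and Cox8a were higher by 1.41 ± 0.17 and 0.95 ± 0.15 on the log2 scale, of which only Cox7a2 reached the fold threshold. Cox8a reached it when Control iWAT library 3 or Control BAT library 2 or 4 was left out (1.01 to 1.06) and with the skeletal muscle markers as a covariate (1.37). Cox6a2 had an estimate of 3.36 ± 1.18 (edgeR adjusted p = 0.033) that missed the call. It was called higher with limma on log2(FPKM + 1) and log2(FPKM + 0.1) (3.98 and 5.02, adjusted p = 0.00393 and 0.00395) and without Control iWAT library 4 alone (6.24, edgeR adjusted p = 0.000116). Control iWAT library 4 was high and Control BAT library 1 low for it, and it was 6.52 ± 0.54 (edgeR adjusted p = 2.21e-05) without these libraries, which leaves 8834 to 16270 CPM of skeletal muscle markers in BAT against 67.1 to 309.9 CPM in iWAT. With the markers as a covariate it was 0.26 ± 0.43 (edgeR adjusted p = 0.68). The log2 ratio of Cox7a1 to Cox7a2 was higher in BAT by 2.16 and that of Cox8b to Cox8a by 2.36 (exact permutation p = 0.0079 for each, adjusted p = 0.019). The brown adipocyte markers ran the same way, with 10 of 10 called higher in Control BAT and sums of 9037 to 13380 CPM against 250.3 to 1175 CPM in Control iWAT. Of 18 skeletal muscle markers 3 were called higher there as well (median log2 fold change 2.22). The part of either cell type in these isoform values was not tested.

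Atp5g3 was lower in Control BAT by 0.82 ± 0.12 on the log2 scale (edgeR adjusted p = 0.000224, called lower at -1.01 without TMM factors), Atp5g2 was higher by 0.57 ± 0.13 (edgeR adjusted p = 0.0033), and Atp5g1 did not pass the test (0.37 ± 0.34, edgeR adjusted p = 0.379). The log2 ratio of Atp5g2 to Atp5g3 was higher by 1.40 in Control BAT (exact permutation p = 0.0079, adjusted p = 0.019). Atp5j did not pass either (0.05 ± 0.16, edgeR adjusted p = 0.832), while Atp5j2, subunit f of the membrane sector, had the largest value of complex V (1.67 ± 0.17, edgeR adjusted p = 2.37e-05).

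**Figure D5:**
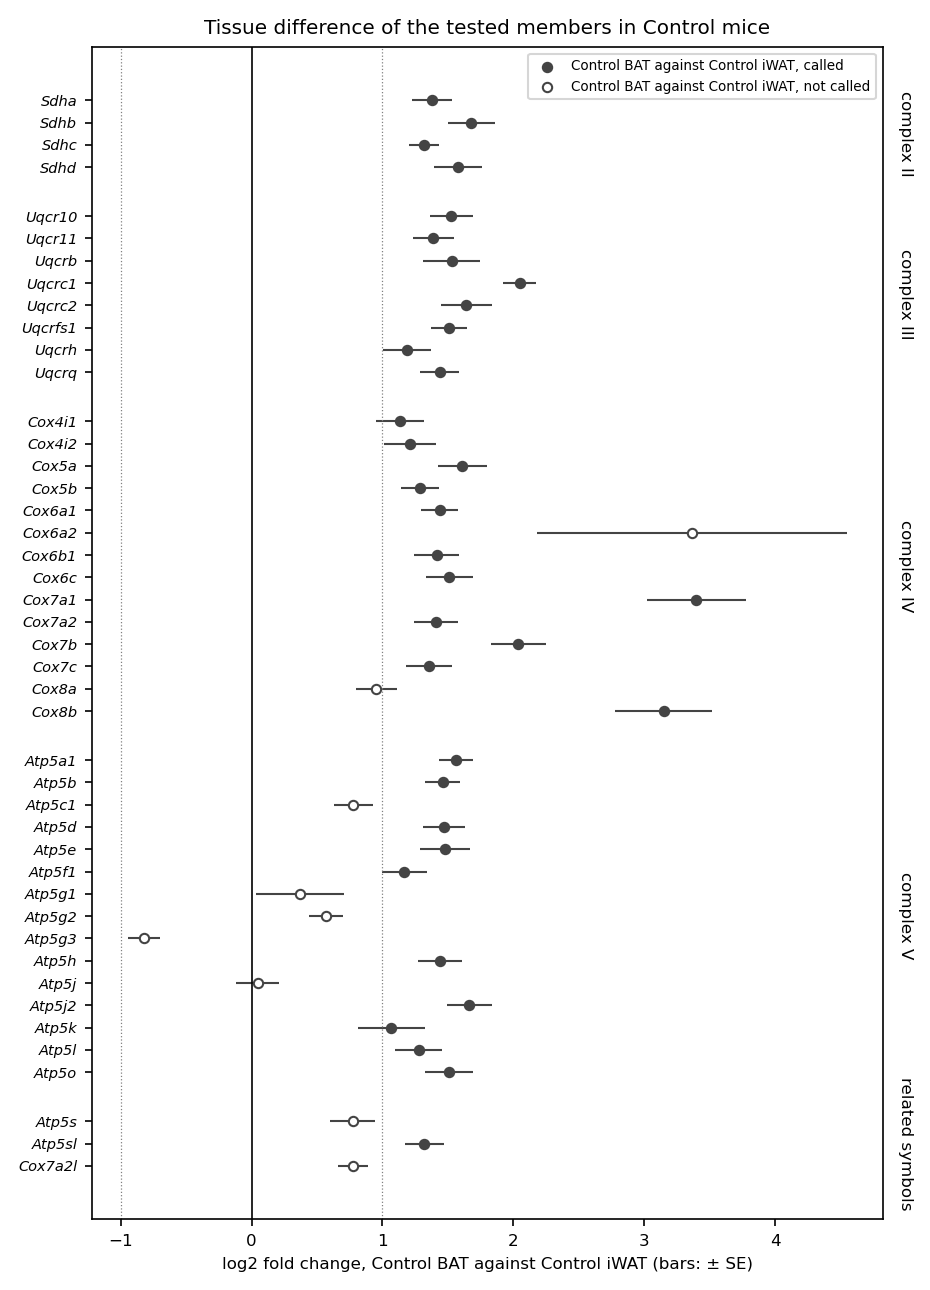
Log2 fold change of Control BAT against Control iWAT for the 44 tested members, by complex, with standard errors as bars. Filled points passed the call, Cox7a1 (3.40) and Cox8b (3.15) lie furthest right among them, and Atp5g3 (-0.82) is the only point left of 0.

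Whether the genotype effect differed between the tissues was tested by the interaction term over all 20 libraries. It passed an adjusted p of 0.01 for 2 of 45 members, a share near the 4.86% of all genes. For Cox7a1 the log2 fold change was higher in BAT than in iWAT by 2.44 ± 0.52 (edgeR adjusted p = 0.00509), and for Atp5g3 by 1.30 ± 0.21 (edgeR adjusted p = 0.000868). Cox7a1 missed the threshold with the replicate block (2.30, edgeR adjusted p = 0.0182) and with the skeletal muscle markers as a covariate (2.39, edgeR adjusted p = 0.0101). It also missed it without Control BAT library 3 or 5 (2.43 and 2.40, edgeR adjusted p = 0.0111 and 0.0102) and with limma on log2(FPKM + 1) (2.09, adjusted p = 0.011). For Atp5g1 the difference was 1.78 ± 0.50 (edgeR adjusted p = 0.0239), past the threshold with DESeq2, and for Cox8b 1.22 ± 0.55 (edgeR adjusted p = 0.136). With the 6 libraries that stand apart in skeletal muscle markers left out, the difference was 1.62 ± 0.54 for Cox7a1 (edgeR adjusted p = 0.0778) and 0.75 ± 0.18 for Atp5g3 (edgeR adjusted p = 0.0213), so that 0 members passed.

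Other genes of oxidative phosphorylation were counted the same way. Of 37 genes with complex I symbols, among them Ndufa4, now known as a subunit of complex IV, 28 were called lower in iWAT and 27 in BAT, with 0 higher, and 35 were called higher in Control BAT than in Control iWAT. Ndufv1 and Ndufa10 were lowest in both tissues (log2 fold change -2.004 and -1.83 in iWAT, -2.32 and -2.16 in BAT), and Ndufa3 and Ndufa7 were highest (-0.71 and -0.63, and -0.43 and -0.40). All 6 genes of a list of electron carriers and subunits outside the symbols followed here were called lower in both tissues. Of these Cyc1, cytochrome c1, is a bound subunit of complex III that is not among its 8 members above, Etfdh is an oxidoreductase of the membrane, and Ndufa4 is counted in the complex I symbols too. The values were those of Cyc1 and Etfb (-1.85 and -1.54 in iWAT, -2.10 and -2.22 in BAT), Etfa and Ndufa4 (-1.08 and -1.12, -1.84 and -1.19), Cycs (-1.02 and -1.05) and Etfdh (-1.17 and -1.72). Of 30 assembly factors tested 5 were called lower in iWAT and 9 in BAT, with 0 higher, where 10.7% and 13.3% of all genes were called lower. Atpaf2, a chaperone of the ATP synthase head, was lowest (-1.46 and -1.98), followed by Lyrm7 in iWAT (-1.35) and Uqcc1 in BAT (-1.72). Sco2 (0.48) and Cox16 (0.35) were highest in iWAT, and Uqcc2 (0.31) and Pet100 (0.16) in BAT, none past the test.

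Among 11 regulators of these genes 3 were called lower in iWAT and 4 in BAT, beside the same 10.7% and 13.3% of all genes. Ppargc1a, a coactivator of mitochondrial genes, fell in iWAT (-1.998, edgeR adjusted p = 3.52e-05) and had -0.15 in BAT (edgeR adjusted p = 0.642), with an interaction past its threshold (1.89, edgeR adjusted p = 0.00266). Ppargc1b fell in both (-1.81 and -2.75, edgeR adjusted p = 5.33e-05 and 3.38e-06), as did the receptor Ppara (-2.77 and -2.55, edgeR adjusted p = 9.29e-06 and 8.51e-06). At the upper end Yy1 passed the p threshold in iWAT without the fold (0.58, edgeR adjusted p = 0.00532) and not in BAT (0.20, edgeR adjusted p = 0.254), Gabpa had 0.22 in iWAT (edgeR adjusted p = 0.191) and -0.55 in BAT (edgeR adjusted p = 0.00211), and Nrf1 had -0.09 in BAT (edgeR adjusted p = 0.63).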

How the data were processed

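RNA from iWAT and BAT was made into stranded mRNA libraries and sequenced as pairs of 150 bp reads. The submitters' processing notes name bcl2fastq 2, STAR 2.5.3a and mm10; the read counter and annotation release are not given in the sources used here. The authors deposited estimated counts and FPKM per gene for all 20 libraries in one table, and 77.3% of the counts above 0 were whole numbers (tolerance 0.001). The deposited FPKM equal the count over transcript width and one total per library, within 0.0001%. Groups and replicate numbers came from the sample titles.

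Counts were rounded and fitted with edgeR 4.0.16 in R 4.3.3 (filterByExpr, TMM, quasi-likelihood test), each tissue alone, the 10 Control libraries for BAT against iWAT, and all 20 libraries for the interaction, with Benjamini-Hochberg adjustment over all genes tested. Isoform ratios were log2 of (FPKM + 0.1) over (FPKM + 0.1), with an exact two-sided permutation test over all arrangements of the libraries and adjustment over 21 tests, called at 0.05. The longest run shared by the transcripts of any isoform pair was 21 bases, against reads of 150 bp. Alternatives used DESeq2 1.42.0, limma 3.58.1 on log2 (FPKM + 1 or 0.1), other scalings and filters, left-out libraries and a covariate. Named by rule were all isoform families, complex II, the 2 lowest and 2 highest genes of each complex and members called higher or past the interaction; other members named were chosen after their values were seen. The alternatives were computed for each tested member (the interaction for Cox7a1, Cox8b, Atp5g1 and Atp5g3). The fitting code was tested on simulated counts. Members, gene lists and motifs were chosen with earlier results of these data known. Depth was 24023371 to 50384446 counts. In the RefSeq GRCm38.p6 table all 47 members lay on the chromosome given in the deposited table, and 44 started within 1000 bp of it.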

Additional observations from a re-analysis of the deposited data

Results flagged for a closer look

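In 11 of 72 sets of 5 libraries (18 isoform and complex II genes in 4 groups) the highest or lowest library lay far from the other 4 by Dixon's criterion; chance gives about 1 in 20. Ai-α4KO iWAT library 1 was such a library for 5 genes, as the highest of its group for Cox6a1 (529.9 RPKM), Cox8a (572 RPKM), Atp5g2 (252.1 RPKM), Cox7a1 (14.6 RPKM) and Cox6a2 (47.3 RPKM), and its skeletal muscle markers summed to 8390 CPM against 26.3 to 186 CPM in the rest of the group. It was the highest library of its group for 21 of 44 tested members. Control iWAT library 4, with a marker sum of 10740 CPM, was the highest of its group for Cox6a2 (34.2 RPKM). Control BAT library 1, with the lowest marker sum of its group, was the highest for Cox7a1 (1683 RPKM) and Cox6b1 (4038 RPKM). In iWAT the log2 fold changes of Cox6a1, Cox8a and Cox6a2 were -1.80, -1.47 and 1.12 with these markers as a covariate, and -2.20, -1.80 and 0.54 without the iWAT libraries high in them. Control iWAT library 3 was high for Atp5g2 (409 RPKM) and was the highest of its group for 37 of 44 tested members. Such counts were not made over all genes. Control BAT library 2 was low for Atp5g2 (420 RPKM), and Ai-α4KO iWAT library 3 was low for Cox4i1 (398 RPKM).

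For 2 members the genotype effect differed between the tissues by the interaction term, namely Cox7a1 (2.44 on the log2 scale, BAT minus iWAT) and Atp5g3 (1.30). These are 2 of 45 members, near the 4.86% of all genes past this threshold. Cox7a1 missed it with the replicate block (edgeR adjusted p = 0.0182) and with the skeletal muscle covariate (edgeR adjusted p = 0.0101), and 0 members passed without the libraries that stand apart in these markers.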

How the results depend on the processing

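The 26 members called lower in iWAT became 18 to 31 under the alternatives, with 0 higher in all of them, and the 26 in BAT became 17 to 36. The 36 came from the omission that kept the 2 lower Ai-α4KO BAT libraries. Leaving out 1 library gave 22 to 31 lower in iWAT, 23 to 28 lower and 1 to 3 higher in BAT, and 34 to 36 higher in Control BAT. Without TMM factors the median of all genes shifted to 0.13 in iWAT, 0.23 in BAT and -0.20 between the tissues, and 19 members were then lower in iWAT, 19 lower and 4 higher in BAT, and 1 lower in Control BAT. With limma on log2(FPKM + 1) 17 were lower and 4 higher in BAT and 1 passed the interaction, and with FPKM + 0.1 4 were higher in BAT. One fit of all 20 libraries gave 1 higher in BAT. The skeletal muscle covariate, and the omission of the libraries that stand apart in these markers (chosen after seeing the data), each gave 0 higher in BAT, with 1 and 0 members past the interaction. Under the covariate Cox6a2 in BAT was -0.076 and Atp5g1 between the tissues -0.81, and without Ai-α4KO iWAT replicate 1 Cox6a2 in iWAT was -2.44 and without Control iWAT replicate 4 it was 3.50. Without TMM factors and in both limma fits Cox7a2, Atp5h, Atp5j2 and Atp5o (both tissues), Sdhc, Cox7b and Cox7c (iWAT), and Cox4i1, Cox6b1 and Cox6c (BAT) fell short of the fold threshold, as Cox4i2 in both tissues and Atp5sl in BAT did with FPKM + 1. Atp5j and Atp5g3 were called higher in BAT in these 3 settings. Atp5k in BAT (-0.03) turned to 0.19 without TMM factors, 0.02 with at least 10 counts in every library, 0.002 in one fit of all libraries and 0.023 and 0.022 with limma, and ran from -0.30 to 0.16 with 1 library left out. Atp5j between the tissues turned to -0.14 without TMM factors, -0.045 with upper-quartile scaling, -0.095 in both limma fits and -0.27 under the covariate, and ran from -0.069 to 0.19 with 1 library left out. Without the libraries that stand apart in skeletal muscle markers it was 0.074 in iWAT and -0.02 in BAT.

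Same-numbered libraries did not deviate together (correlations from -0.45 to 0.24), so the numbers were not taken as pairs. With the replicate block 25 members were lower in iWAT and 26 lower and 2 higher in BAT, and 1 passed the interaction; Cox7a1 then missed it (edgeR adjusted p = 0.0182). The paired test of the isoform ratios was not run because 5 pairs cannot reach p below 0.05 by sign flips. At an adjusted p of 0.05, 4 members passed the interaction. Leaving out 1 library gave 1 to 2 members past it.

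Among isoform ratios, Cox4i2 to Cox4i1 turned to 0.05 in iWAT, 0.048 in BAT and -0.18 between the tissues with FPKM + 1. Leaving out 1 library gave between the tissues -0.12 to 0.14 for Cox4i2 to Cox4i1, 2.98 to 4.90 for Cox6a2 to Cox6a1 (past the test without Control iWAT replicate 4), -0.56 to 0.049 for Atp5g1 to Atp5g2 and 0.84 to 1.40 for Atp5g1 to Atp5g3 (past it without Control BAT replicate 1). In iWAT it gave 1.79 to 3.71 for Cox6a2 to Cox6a1 (past it without Control replicate 4), and in BAT -0.17 to 0.079 for Cox7a1 to Cox7a2 and 0.95 to 1.52 for Atp5g1 to Atp5g3 (past it without Control replicate 2).

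Without the libraries that stand apart in skeletal muscle markers no ratio passed, since 4 against 4 libraries give an adjusted p of 0.05 at best here, which is not below the threshold, and 4 against 2 in BAT cannot come near it. The values in iWAT were -2.37 for Cox7a1 to Cox7a2, 1.11 for Atp5g1 to Atp5g2 and 0.74 for Atp5g1 to Atp5g3. In BAT they were 3.07 for Cox6a2 to Cox6a1, 1.78 for Atp5g1 to Atp5g2, -1.25 for Atp5g2 to Atp5g3, -0.50 for Cox7a1 to Cox7a2 and -0.28 for Cox8b to Cox8a, and between the tissues 2.18 for Cox7a1 to Cox7a2, 2.36 for Cox8b to Cox8a, 1.26 for Atp5g2 to Atp5g3 and 0.24 for Atp5g1 to Atp5g2. Depth limits statements on Cox6b2, Cox7b2 and Cox8c.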
